A study of Mus musculus with 8 samples.

Results

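The genes examined were 8 genes of MHC class II antigen presentation, H2-Aa, H2-Ab1, H2-Eb1, H2-DMa, H2-DMb1, Cd74, Ciita and Ctss, taken by symbol from a table of 11233 genes. All 8 were in the table and passed the limit on low values, a mean of at least 10 normalized counts, as did 11032 genes in all. The 8 bulk RNA-Seq libraries were made from tumor-infiltrating conventional CD4+ T (Tconv) cells, 4 of them sorted as CCR8+ (CCR8pos_DTX, replicates 1 to 4) and 4 as CCR8- (CCR8neg_DTX, replicates 1 to 4). Every library came from mice with the Foxp3-EGFP_DTR genotype, in which the Foxp3 gene drives EGFP and the diphtheria toxin receptor, so that DTx removes Treg cells, and all 8 were from DTx-treated animals that bore a subcutaneous tumor of the B16-F10 line, mouse melanoma cells that can be transplanted. No library of untreated or Treg-replete mice was compared here, the age of the mice is not in the labels, and the labels do not say whether libraries with the same number came from the same mouse. If they are not separate animals, p-values measure only the spread between these samples. The chemokine receptor CCR8 was the sorting marker, and the comparison asks whether the sorted populations differed in transcripts of this pathway.

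Class II molecules display peptides from endosomes to CD4+ T cells. H2-Aa and H2-Ab1 encode the alpha and beta chains of I-A, and H2-Eb1 the beta chain of I-E. Cd74 is the invariant chain that fills the groove and leads new class II molecules to endosomes. Ctss (cathepsin S) trims it there, and the H2-DM heterodimer of H2-DMa and H2-DMb1 exchanges the remaining fragment for peptide. Ciita is the transactivator that switches these genes on, through a complex of RFX and NF-Y factors bound to X and Y boxes in their promoters. Dendritic cells, B cells and activated macrophages are the classical sources, whereas mouse T cells are generally held to make little class II.

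Upstream of these genes the boxes can be read directly. In GENCODE M21 (GRCm38), 5 of the 8 genes lie on chromosome 17 between 34119541 and 34316674, within 197 kb. On it H2-DMa occupies 34119541 to 34139101, H2-DMb1 34153072 to 34160230, H2-Ab1 34257689 to 34269419 and H2-Eb1 34305867 to 34316674 on the plus strand, and H2-Aa 34282744 to 34287823 on the minus strand. RefSeq promoter windows (GRCm38.p6) were matched for 5 of the 8 genes, and the 250 bases before each start were searched on both strands. The motifs were the Y box ATTGG, the X core ACNNATG, and a pair in which ATTGG begins 15 to 30 bases after ACNNATG on the same strand, so that the boxes of a pair do not overlap. Stretches of 80 bases are shown for 3 genes because the box that binds NF-Y, and the RFX-binding core where matched, stand in them. They are H2-Eb1 at chr17:34305758-34305837 (plus strand), H2-Aa at chr17:34287842-34287921 (minus strand) and, from outside the 8 genes, the H2-DM beta chain gene H2-DMb2 at chr17:34145109-34145188 (plus strand), each written 5′ to 3′ along its gene, with the motifs matched on either strand in capitals (CCAAT is ATTGG read on the opposite strand):
H2-Eb1: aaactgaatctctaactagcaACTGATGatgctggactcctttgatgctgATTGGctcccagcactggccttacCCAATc
H2-Aa: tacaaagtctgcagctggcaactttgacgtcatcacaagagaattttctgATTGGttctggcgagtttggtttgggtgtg
H2-DMb2: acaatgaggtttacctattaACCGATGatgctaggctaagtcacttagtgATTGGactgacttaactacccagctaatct

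On the strand of the gene the Y box lay 59 bases before the start in H2-Eb1, 48 in H2-Aa and 90 in H2-DMb2, and H2-Eb1 held a further Y box on the opposite strand 35 bases before the start. In H2-Eb1 the X core ended 22 bases before the first of these and in H2-DMb2 23 bases before the Y box. The pair was also found in H2-DMb1, again 23 bases apart, in a stretch that GENCODE places in the first exon. H2-Aa, H2-DMa, H2-DMb1 and H2-Eb1 held a Y box, and Ctss held an X core without one. The pair was thus in 2 of the 5 genes with a window, and among the other genes of the pathway in H2-DMb2, H2-Eb2 and H2-Ob, 3 of 26. Over all 32851 promoter windows the share was 33.8% for the Y box, 26.7% for the X core and 0.463% for the pair. These matches describe letters in the windows, not bound sites. H2-Aa held the letters of the X core outside the stretch shown, 232 bases before the start on the opposite strand, and not in a pair.

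Every value below is a normalized count, the authors' read count of a gene divided by a single factor per library. The libraries held between 12067780 and 17802628 reads over the table, and 3 reads corresponded to between 2.21 and 3.42 normalized counts, a floor that covers counting error only. Between 8569 and 10882 genes were detected, fewest in CCR8- replicate 1, where 242 genes were at 0 that had at least 100 in the other 7 libraries, compared with 44 in CCR8+ replicate 1, 36 in CCR8+ replicate 3 and 0 elsewhere. All 7 measured CD4 T cell markers were above 0 in every library, with sums between 64692 and 91098. Transcripts of other cells stood beside them. The sum of 15 macrophage markers was between 89.6 and 86708 in CCR8- and between 3757 and 29280 in CCR8+ libraries, highest in CCR8- replicate 4 and lowest in CCR8- replicate 1. In bulk samples, fewer cells of a type and less RNA per cell cannot be told apart.

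Transcripts of both I-A chains and of the I-E beta chain were present in all 8 libraries. They varied more within each population than between them. H2-Aa had 479.7, 1631, 656 and 11928 normalized counts in CCR8- replicates 1 to 4, and 5807, 3628, 679.7 and 3626 in CCR8+ replicates 1 to 4. Its beta chain partner H2-Ab1 had 1353, 3547, 1456 and 16606 in CCR8- and 9852, 7603, 1366 and 4229 in CCR8+ cells. For both genes CCR8- replicate 4 was highest of all, CCR8- replicate 1 and CCR8+ replicate 3 were among the lowest 3, and the groups overlapped. H2-Eb1 had 234, 1588, 512 and 8136 in CCR8- and 5921, 2723, 235 and 2403 in CCR8+ cells, the same order at both ends. From the lowest to the highest library the difference was 24.9-fold for H2-Aa, 12.3-fold for H2-Ab1 and 34.7-fold for H2-Eb1. Against this spread the log2 fold changes, CCR8+ over CCR8-, were 0.77 ± 0.93 (SE, n = 4 per group) for H2-Aa, 0.47 ± 0.79 for H2-Ab1 and 0.64 ± 1.11 for H2-Eb1, on log2(normalized count + 1) in limma. Their adjusted p-values by limma were 0.872, 0.909 and 0.913. For H2-Aa the arithmetic means ran the other way, at 3435 ± 2105 in CCR8+ cells and 3674 ± 5526 in CCR8- cells (mean ± SD, n = 4 each).

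**Figure D1:**
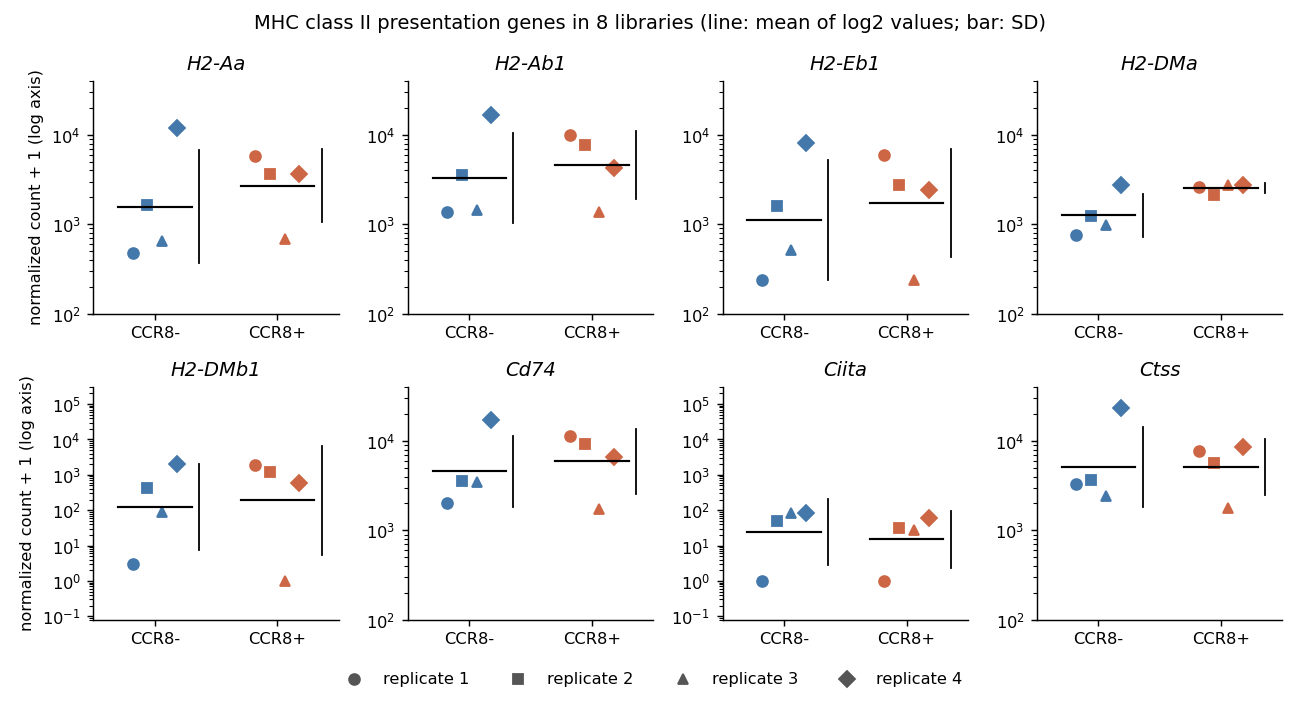
Normalized counts + 1 (log axis) of the 8 genes in CCR8- (blue) and CCR8+ (orange) libraries, 1 symbol per replicate number, with the mean of the log2 values as a line and their SD as a bar beside it; H2-DMb1 and Ciita have a wider axis. CCR8- replicate 4 is the highest library for H2-Aa, H2-Ab1, H2-Eb1, Cd74 and Ctss, and H2-DMa in CCR8+ cells is the tightest group, from 2129 to 2769.

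The members outside chromosome 17 are Cd74 on chromosome 18 from 60803848 to 60812652, Ciita on chromosome 16 from 10480059 to 10528418 and Ctss on chromosome 3 from 95526786 to 95556403. Cd74, the invariant chain, had a like order of libraries. It had 2031, 3581, 3480 and 17167 normalized counts in CCR8- and 11402, 9165, 1741 and 6677 in CCR8+ replicates 1 to 4, a log2 fold change of 0.37 ± 0.68 (SE, n = 4 per group; limma adjusted p = 0.918). Ctss, the protease that degrades it, had 3326, 3690, 2421 and 23593 in CCR8- and 7816, 5612, 1798 and 8639.6 in CCR8+ cells. CCR8- replicate 4 stood above all others for both genes, CCR8+ replicate 3 was lowest, and the log2 fold change of Ctss was -0.01 ± 0.69 (SE; limma adjusted p = 0.999).

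H2-DMa, the alpha chain of the peptide exchanger, had the smallest p of the members, and it did not pass adjustment. It had 763, 1227, 978 and 2770 normalized counts in CCR8- and 2628, 2129, 2769 and 2729 in CCR8+ cells, so that 3 of the 4 CCR8- libraries lay below every CCR8+ library and CCR8- replicate 4 was level with the highest of them. The means were 2564 ± 296 in CCR8+ cells and 1435 ± 910 in CCR8- cells (± SD, n = 4 each). Its log2 fold change was 1.01 ± 0.35 (SE, 95% interval 0.24 to 1.79), with an unadjusted p of 0.0150, an adjusted p of 0.838 by limma and an exact two-sided permutation p of 0.143. H2-DMa shares 360 exonic bases with Brd2 on the opposite strand, and the use of strand in counting is not given in the sources used here. Brd2 had a log2 fold change of -0.31 ± 0.29 (SE; limma adjusted p = 0.847).

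The beta chain of the exchanger varied far more than the alpha chain. H2-DMb1 had 1.97, 435, 87.7 and 1991 normalized counts in CCR8- and 1892, 1222, 0 and 599 in CCR8+ cells. The 0 in CCR8+ replicate 3 allows up to 3.42, and the 2 reads in CCR8- replicate 1 were under the floor, although these libraries had 2769 and 763 of H2-DMa. That limit covers counting error only. With at least 100 in every other library, 36 genes were at 0 in CCR8+ replicate 3 and 242 in CCR8- replicate 1. The ratio of H2-DMb1 to H2-DMa was between 0 and 0.720 over the 8 libraries. Its log2 fold change of 0.65 ± 2.46 (SE, n = 4 per group; limma adjusted p = 0.964) has an interval of -4.76 to 6.06. H2-DMb2, a close copy in the same cluster, can share reads with H2-DMb1, so both values are uncertain to that extent. H2-DMb2 had 205 in CCR8+ replicate 3 and 0 in CCR8- replicate 1.

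Ciita, the transactivator, was scarce. It had 0, 49.98, 85.1 and 84.0 normalized counts in CCR8- and 0, 31.1, 26.2 and 60.1 in CCR8+ cells, from 368 reads in all libraries together. The libraries numbered 1 had none, which allows up to 2.96 in CCR8- and 3.24 in CCR8+ cells, whereas CCR8+ replicate 1 had the second highest H2-Aa, H2-Ab1, H2-Eb1 and Cd74 of all. Both limits cover counting error only. With at least 100 in every other library, 242 genes were at 0 in CCR8- replicate 1 and 44 in CCR8+ replicate 1. The log2 fold change of Ciita was -0.70 ± 1.97 (SE; limma adjusted p = 0.955). Ciita shares 329 exonic bases with Dexi on the opposite strand, and Dexi differed by -0.90 ± 0.90 on the log2 scale (SE; limma adjusted p = 0.852).

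Per length the members ranged widely. As median normalized counts per kb of exon over the 8 libraries, the order was Ctss at 3425, Cd74 at 3055, H2-Ab1 at 1514, H2-Eb1 at 1027, H2-Aa at 692, H2-DMa at 689.8, H2-DMb1 at 308 and Ciita at 4.25. The ranges over libraries overlapped between all neighbours in this order. Ciita at its highest, 8.92, was below the lowest library of the other members save H2-DMb1, whose lowest was 0. These lengths are of all annotated exons together, which understates a gene whose longer isoforms are not in use.

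Across the whole table limma called 0 of 11032 genes at an adjusted p under 0.05 (0% called), with 562 genes (5.09%) at an unadjusted p under 0.05. On the recovered reads DESeq2 called 27 genes (0.245%) and edgeR 0 (0%, with 487 at an unadjusted p under 0.05), none of them members. Of the 8 members 0 were called, and 1, H2-DMa, had an unadjusted p under 0.05. Groups that did not overlap were found for 0 of the 8 and for 485 of all tested genes (4.40%). Log2 fold changes were above 0 for 6 of 8, with a median of 0.56 over the members and 0.04 over all tested genes. The exact permutation p-values of the single members were between 0.143 and 1, and the smallest that 4 against 4 libraries allow is 0.0286. The share of positive values rested on single libraries: it was 3 of 8 without CCR8- replicate 1 and 7 of 8 without CCR8- replicate 4, and the members' median was then -0.07 and 1.32. Without both of these libraries, a run added after seeing the data, 6 of 8 were above 0, with a median of 0.86 and 0 called.

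**Figure D2:**
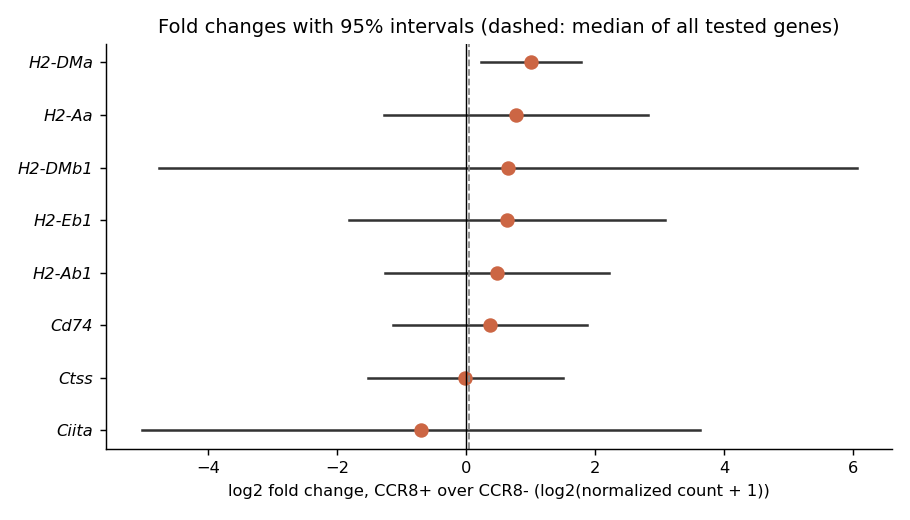
Log2 fold change of each gene, CCR8+ over CCR8-, as a point with its 95% interval from limma as a line; the dashed line is the median of all tested genes, 0.04. H2-DMa, with an interval of 0.24 to 1.79, is the member whose interval leaves out 0, and those of H2-DMb1 and Ciita are the widest.

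Libraries with the same replicate number gave 4 different pictures. In the libraries numbered 1 the log2 difference, CCR8+ minus CCR8-, was above 0 for 7 members and 0 for Ciita, with a median of 2.68 and 9.32 for H2-DMb1. In those numbered 2 it was above 0 for 7 of 8, with a median of 0.95. In those numbered 3 it was below 0 for 6 of 8 (median -0.71), the exceptions being H2-DMa at 1.5 and H2-Aa at 0.05. In those numbered 4 it was below 0 for all 8, with a median of -1.58 and values between -1.97 and -0.02. No member was higher in CCR8+ cells under all 4 numbers. Ciita was higher in CCR8+ cells under none, being lower under 3 numbers and at 0 in both libraries of the remaining number.

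**Figure D3:**
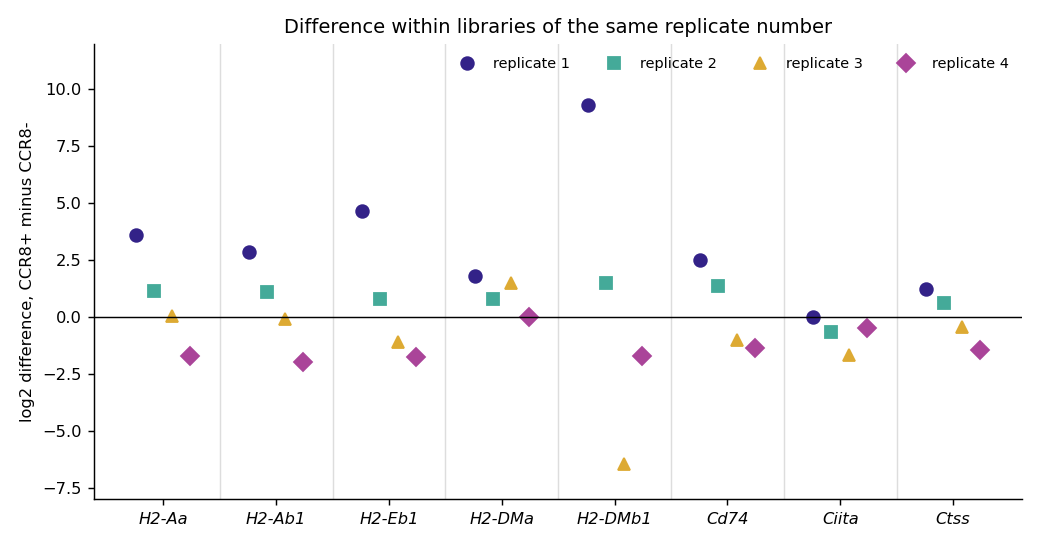
Log2 difference (log2(normalized count + 1), CCR8+ minus CCR8-) of each gene between libraries of the same replicate number, 1 symbol and colour per number. The libraries numbered 1 lie above 0 for all but Ciita and those numbered 4 lie at or below 0 for every gene, down to -1.97 for H2-Ab1.

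The members were set against macrophage transcripts across the libraries. Lyz2 (lysozyme of myeloid cells) had 14.8, 1044, 449 and 28853 normalized counts in CCR8- and 19993, 7616, 1396 and 7266 in CCR8+ replicates 1 to 4. C1qa, a chain of the complement component C1q, had 1.97, 279, 55.3 and 3230 in CCR8- and 291, 1017, 138 and 1196 in CCR8+ cells. Csf1r, the receptor for macrophage colony-stimulating factor, had 0, 38.2, 14.0 and 611 in CCR8- and 754, 403, 62.7 and 171 in CCR8+ cells. CCR8- replicate 4 was highest for Lyz2 and C1qa and CCR8- replicate 1 lowest for all 3 genes, and the same libraries were highest and lowest for H2-Aa, H2-Ab1, H2-Eb1 and H2-DMa, whereas CCR8+ replicate 3 was lowest for Cd74, Ctss and H2-DMb1. None of the 3 passed adjustment between the groups, at log2 fold changes of 3.20 ± 1.74, 2.09 ± 1.71 and 3.30 ± 1.75 (SE, n = 4 per group; limma adjusted p = 0.838 for each). Of the 15 macrophage markers 13 had a log2 fold change above 0, with a median of 2.12, against 52.4% of all tested genes. The arithmetic means were lower in CCR8+ cells for 7 of the 15, which include the 2 with a log2 fold change below 0. The marker sums averaged 23272 ± 42333 in CCR8- and 20009.8 ± 11457 in CCR8+ cells (SD, n = 4 each).

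The macrophage level, the mean log2(normalized count + 1) of Lyz2, C1qa and Csf1r, went from 1.85 in CCR8- replicate 1 to 11.9 in CCR8- replicate 4. H2-Aa went up with it with Pearson's r = 0.89 (exact permutation p = 0.00196, n = 8) and Spearman's rho = 0.98 (exact permutation p = 0.000397). H2-Ab1 had r = 0.84 (exact permutation p = 0.00481) and rho = 0.93 (p = 0.00223), and H2-Eb1 r = 0.85 (exact permutation p = 0.00236) and rho = 0.93 (p = 0.00223). The values were r = 0.82 (exact permutation p = 0.00806) and rho = 0.86 (p = 0.0107) for Cd74, and r = 0.87 (exact permutation p = 0.00444) and rho = 0.79 (p = 0.0279) for H2-DMa. The chain genes, Cd74 and H2-DMa thus went up with the macrophage level over the 8 libraries, by unadjusted p. Within CCR8+ libraries H2-DMa did not keep this order. Its highest value there, 2769 normalized counts, was in CCR8+ replicate 3, which had the lowest macrophage level of that group, 7.85. H2-DMb1 had r = 0.76 (exact permutation p = 0.0292) and rho = 0.86 (p = 0.0107). Ctss had r = 0.68 (exact permutation p = 0.0628) and rho = 0.76 (p = 0.0368), and Ciita r = 0.40 (exact permutation p = 0.333) and rho = 0.07 (p = 0.872). In 8 relations computed, 6 had an unadjusted p of r under 0.05 with r above 0, as did 10.5% of the 11029 genes tested in the same way. Adjusted over all those genes by Benjamini-Hochberg, the p-values of r were between 0.168 for H2-Aa and 0.583 for Ciita, and 0 genes (0%) passed 0.05, so that no member's relation passed adjustment. The median r was 0.83 over the members and 0.17 over all genes.

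**Figure D4:**
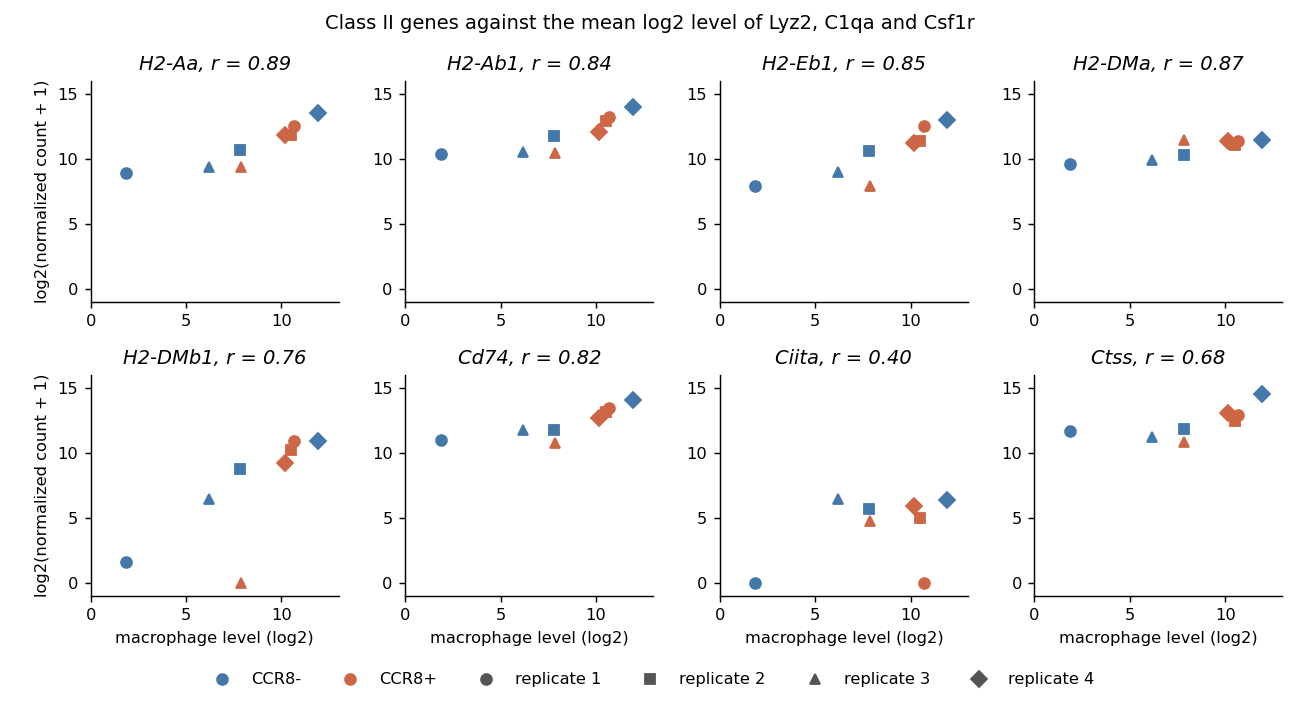
Each gene's log2(normalized count + 1) against the macrophage level, the mean log2(normalized count + 1) of Lyz2, C1qa and Csf1r, in 8 libraries (blue CCR8-, orange CCR8+, symbols for replicate numbers). The points climb for H2-Aa (r = 0.89), H2-Ab1, H2-Eb1 and Cd74, CCR8- replicate 1 at a level of 1.85 still has 234 or more normalized counts of each, and Ciita (r = 0.40) shows no such order.

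The relation was computed again without the ends of the scale. Without the 2 libraries farthest from the median macrophage level, CCR8- replicates 1 and 4, r over 6 libraries was 0.93 for H2-Aa (exact permutation p = 0.00972) and 0.89 for H2-Ab1 (exact permutation p = 0.0139). It was 0.80 for H2-Eb1 (exact permutation p = 0.05), 0.81 for Cd74 (exact permutation p = 0.0528) and 0.85 for Ctss (exact permutation p = 0.0597). H2-DMa had 0.74 (exact permutation p = 0.107) and H2-DMb1 0.59 (exact permutation p = 0.179). H2-Aa and H2-Ab1 thus kept an unadjusted p under 0.05 without these libraries, whereas the p of H2-Eb1, Cd74, H2-DMa and H2-DMb1 was then at or above 0.05, with 6 libraries in place of 8. Ciita turned to -0.56 (exact permutation p = 0.210). As deviations from the group means, r was 0.91 for H2-Aa, 0.87 for H2-Ab1, 0.89 for H2-Eb1, 0.86 for Cd74, 0.85 for H2-DMa, 0.82 for H2-DMb1, 0.77 for Ctss and 0.53 for Ciita, given as a description with no test.

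Melanoma transcripts varied across the same libraries in another order. The sum of 7 melanoma markers was 105, 4413, 5574 and 17389 in CCR8- and 308, 5177, 232 and 21841 in CCR8+ replicates 1 to 4. The mean log2 level of these markers correlated with the members by r between 0.17 for H2-DMa and 0.62 for H2-DMb1, apart from Ciita. Their exact permutation p-values were between 0.111 and 0.621 (n = 8, unadjusted). Ciita had r = 0.83 (exact permutation p = 0.00139, n = 8) and rho = 0.90 (exact permutation p = 0.00516), and 9.59% of 11025 genes had an unadjusted p under 0.05 with r above 0. Adjusted over those genes its p was 0.167. Without the 2 libraries farthest from the median melanoma level, both numbered 1, r of Ciita was 0.77 over 6 libraries (exact permutation p = 0.0333). Over the same 6 libraries r was 0.90 for H2-DMb1, 0.79 for H2-Eb1, 0.77 for Cd74 and 0.74 for Ctss. It was 0.67 for H2-Aa, 0.62 for H2-Ab1 and -0.11 for H2-DMa. Exact permutation p-values of these members were between 0.0556 and 0.897. The relations with the melanoma level were looked at after seeing the data. The 3 lowest Ciita values were in the 3 libraries with the least melanoma transcripts, CCR8- replicate 1 and CCR8+ replicates 1 and 3. These were also the 3 libraries with the fewest genes detected, 8569, 9544 and 9701. Whether the relation of Ciita goes with detection rather than melanoma transcripts was not tested. The part of melanoma or macrophage RNA in any of these values was not tested.

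In 1 library, class II transcripts were also counted where the 15 macrophage markers were nearly absent. In CCR8- replicate 1 the 15 macrophage markers summed to 89.6 normalized counts, with 5 of them at 0, while H2-Aa, H2-Ab1, H2-Eb1 and Cd74 summed to 4099. The ratio of these sums was 45.7 in that library and between 0.621 and 3.73 in the others. CCR8- replicate 1 also had the fewest genes detected, 8569, with 242 genes at 0 that had at least 100 in every other library. Whether its low macrophage sum goes with this loss of genes was not tested. The same library had the highest sum of 7 dendritic cell markers, 1679, compared with between 336 and 1306 elsewhere. That sum came mainly from Cd209a at 583, Zbtb46 at 471 and Clec10a at 375, 3 markers named after their values were seen, with Flt3, Itgax and Batf3 at 0. CCR8+ replicate 3 had almost the same 4-gene sum, 4022, with a macrophage sum of 3757. B cell markers were low, at sums between 0 and 833, with the defining marker Ms4a1 at 0 in all 8 libraries. Neutrophil and monocyte markers summed to between 5140 and 16145 and CD8 T and NK cell markers to between 497 and 5166, and their part in the class II values was not tested.

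**Figure D5:**
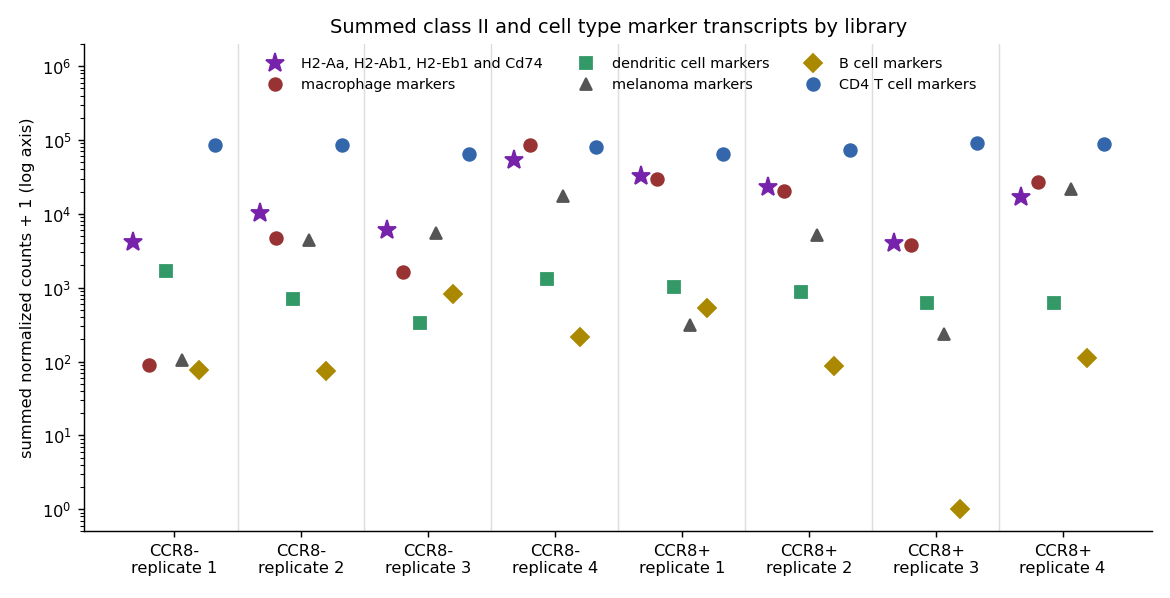
Summed normalized counts + 1 (log axis) by library for H2-Aa, H2-Ab1, H2-Eb1 and Cd74 together (stars) and for 5 lists of cell type markers. CD4 T cell markers stay between 64692 and 91098, the class II stars go from 4022 to 53838, and macrophage markers go from 89.6 in CCR8- replicate 1 to 86708 in CCR8- replicate 4.

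The chain genes and Cd74 kept close to each other over the libraries. Between the log2 values of H2-Aa, H2-Ab1, H2-Eb1 and Cd74, r over the 8 libraries was between 0.96 and 0.98, whereas H2-DMa had r between 0.56 and 0.70 with these genes and Ciita between 0.08 and 0.16. H2-DMb1 had r = 0.37 with H2-DMa and 0.94 with H2-Eb1. These correlations are descriptions over libraries that share depth and makeup. Among 8401 further genes with a mean of at least 100, the 10 most like the mean log2 level of the 4 genes included Msr1, Fcer1g, Clec4n, Clec4a2, Clec12a, Tyrobp, Fcgr1, Cd40 and Ms4a6d, with r between 0.96 and 0.98 over the 8 libraries. Msr1, the first of them, had 0, 17.6, 0.877 and 977 normalized counts in CCR8- and 397, 208, 0 and 226 in CCR8+ replicates 1 to 4. Among the 100 most alike genes were 8 of the 15 macrophage markers and 4 of the 10 genes of peptide loading and endosomal proteolysis, Lgmn, Ctsd, Ifi30 and Ctsz, but none of the 7 CD4 T cell, 5 melanoma or 3 dendritic cell markers at this level. The median r was 0.83 for the macrophage markers, 0.72 for 3 CD8 T and NK cell markers and 0.56 for 3 neutrophil and monocyte markers. It was 0.60 for 1 B cell marker, 0.45 for the melanoma and 0.23 for the stromal and endothelial markers. Dendritic cell markers had -0.03, CD4 T cell markers -0.10 and all 8401 genes 0.08.

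Of 35 further genes of the pathway 31 were in the table and 30 were tested, of which 0 were called by limma. An unadjusted p under 0.05 was found for 4 of the 30 (13.3%, against 5.09% of all genes), 2 of them higher and 2 lower in CCR8+ cells, and groups that did not overlap for 4 (13.3%, against 4.40%). The median log2 fold change was 0.10.

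The further chain genes were H2-DMb2 and H2-Oa, the alpha chain of the DM inhibitor H2-DO. H2-DMb2 had 0, 87.5, 22.8 and 119 normalized counts in CCR8- and 146, 174, 205 and 170 in CCR8+ cells, so that every CCR8+ library lay above every CCR8- library. Its log2 fold change was 2.95 ± 1.502 (SE; limma adjusted p = 0.838, exact permutation p = 0.0286, the smallest this design allows). The exact test of H2-Oa gave p = 0.114 at a log2 fold change of 2.71 ± 1.55 (SE; limma adjusted p = 0.838), and H2-Ob was too low to be tested.

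All 10 measured genes of peptide loading and proteolysis had a log2 fold change above 0, against 52.4% of all tested genes, with a median of 0.51. Arithmetic means ran the other way for Lgmn, at 425 in CCR8+ and 522 in CCR8- cells, and for Ctsl, at 963 and 2188. CCR8- replicate 1, with the fewest genes detected, was the lowest library for all 10 but Ctsb and Cst3. Among the 10 genes, 1 had an unadjusted p under 0.05 in limma. That gene was Ctsh, which encodes the aminopeptidase cathepsin H. It had 51.2, 295, 363 and 1641 normalized counts in CCR8- and 1809, 1246, 5067 and 1595 in CCR8+ cells, which overlapped only through CCR8- replicate 4. The log2 fold change was 2.74 ± 0.85 (SE; limma unadjusted p = 0.00793, adjusted p = 0.838). CCR8+ replicate 3, one of the lowest libraries for the class II chains, was the highest for Ctsh.

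The genes that switch Ciita on and build the promoter complex gave 4 values above 0 and 12 below. Nfyb, a subunit of the NF-Y complex that binds the ATTGG box shown above, had 1058, 1389, 1011 and 1155 normalized counts in CCR8- and 2091, 1474, 1666 and 1400 in CCR8+ cells. Its groups did not overlap, at a log2 fold change of 0.52 ± 0.23 (SE; limma unadjusted p = 0.0443, adjusted p = 0.838). Ifngr2, a chain of the interferon-gamma receptor, had 1184, 1312, 665 and 1085 in CCR8- and 656, 577, 366 and 231 in CCR8+ cells, again without overlap and in the other direction. Its log2 fold change was -1.28 ± 0.39 (SE; limma unadjusted p = 0.00722, adjusted p = 0.838). Pias1, an E3 SUMO ligase, had 2560, 1313, 1057 and 995 in CCR8- and 293, 913, 834 and 304 in CCR8+ cells, also without overlap, at a log2 fold change of -1.42 ± 0.46 (SE; limma adjusted p = 0.838).

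Rfx5, a subunit of the RFX complex, had 194, 131, 178 and 102 normalized counts in CCR8- and 0, 71.4, 130 and 57.5 in CCR8+ cells, at a log2 fold change of -2.44 ± 1.52 (SE; limma adjusted p = 0.838). Ifng, the cytokine that induces Ciita, had 2490, 3682, 3417 and 8762 in CCR8- and 4303, 4978, 479 and 10423 in CCR8+ cells. Its groups overlapped over most of their range, and its log2 fold change was -0.34 ± 0.78 (SE; limma adjusted p = 0.942). The interferon-responsive factor Irf1 had a log2 fold change of -0.37 ± 0.31 (SE; limma adjusted p = 0.838). On the T cell side, Cd4, the coreceptor that binds class II, was between 6365 and 9823 in all 8 libraries (log2 fold change 0.00 ± 0.20, SE; limma adjusted p = 0.999). Lag3, an inhibitory receptor for class II, had at most 34.2 in CCR8- and 102 in CCR8+ cells (1.90 ± 1.64, SE; limma adjusted p = 0.839).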

How the data were processed

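The 8 bulk RNA-Seq libraries, 4 of CCR8+ and 4 of CCR8- Tconv cells, were prepared with a low-input kit that amplifies cDNA. Groups and replicate numbers came from the labels. Per the methods and the submitters' processing notes, the authors used FastQC, cutadapt, hisat2, HTSeq and DESeq2 with NCBIM37 (mm9) and kept uniquely mapped reads. Tool versions, and whether counting used strand, are not given in the sources used here. The values the authors deposited are a signal, reads per gene over 1 library-wide factor. All values (100%, within 0.1 of a read) were whole multiples of 1 read, worth between 0.735 and 1.14. Depth and the floor of 3 reads are in the report, at a confidence level of 95% for intervals of fold changes.

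Differences were tested on log2(value + 1) with limma 3.58.1 (R 4.3.3) with an intensity trend, for genes averaging 10 or more, and p-values were adjusted by Benjamini-Hochberg over all of them. Single genes had exact two-sided permutation tests over 70 assignments of the labels, and correlations over 40320 pairings of 8 libraries. Correlation p-values were adjusted over all tested genes, added after seeing the data, in place of the members alone. edgeR 4.0.16 and DESeq2 1.42.0 were run on the recovered reads as alternatives, beside other scalings, pseudocounts, limits on the mean, a replicate block and leaving out libraries. The limma, edgeR and DESeq2 comparisons of the groups, without the replicate block, were checked on simulated data with the same spread setting for all genes. No library was made to lose genes there, so the check does not cover losses of that kind.

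The members and lists were chosen with earlier results of these data known. Genes named are all members, pathway genes with an unadjusted p under 0.05 or groups that did not overlap, Ifng, Irf1, Cd4, Lag3 and Rfx5 as fixed examples, 3 macrophage markers and the 10 most alike genes. Some genes that this rule takes in are not reported here. Marker lists are given as sums. Positions and exon lengths are from GENCODE M21, a later build than the authors', and serve to locate genes and scale for length only. The main comparisons used all 8 libraries, and 0 columns of values were left out.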

Additional observations from a re-analysis of the deposited data

Results flagged for a closer look

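In the CCR8- group, replicate 4 stood apart from the other 3 libraries for 4 of the 8 genes, by a gap to the next library that, as a part of the group's whole range, exceeded Dixon's 95% critical value for 4 samples. The values were 11928 normalized counts of H2-Aa (gap 0.899 of the range), 16606 of H2-Ab1 (0.856), 17167 of Cd74 (0.898) and 23593 of Ctss (0.940). Among 16 combinations of gene and group tested, these 4 were found. Chance gives about 1 in 20 where values are normally distributed, which was not checked for these counts. The rule was applied to normalized counts and not to log2 values, on which high values stand out less. The 4 genes are not independent, since they moved together over the libraries. The same library had the highest macrophage marker sum, 86708 normalized counts. No library of the CCR8+ group stood apart in this way for any of the 8 genes.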

How the results depend on the processing

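None of the 8 genes was called under any alternative run. Over all genes the count called was 0 and became 1 with the replicate block (Il5, higher in CCR8+ cells, named after its value was seen), 2 in limma without the trend (E230029C05Rik and Wdr89, also named afterwards), 27 in DESeq2 and 126 in DESeq2 with the replicate block, which called 1 further pathway gene, Ctsh. Without any single library it was 0. The cause of these differences was not tested. The direction of H2-DMa held in every alternative (0.55 to 1.39). That of other genes turned in 19 of 175 recomputed fold changes. H2-Aa turned to -0.10 in edgeR and -0.10 in DESeq2. H2-DMb1 turned to -0.046 with a pseudocount of 0.1 and -0.12 in DESeq2 with the replicate block. Without both CCR8- libraries 1 and 4 (added after seeing the data) H2-DMb1 became -0.027 and Ctss 0.77. With the macrophage level as a covariate (added after seeing the data) values were -0.71 for H2-Aa, -0.73 for H2-Ab1, -1.10 for H2-Eb1, -2.83 for H2-DMb1 and -0.64 for Cd74. Without single libraries the ranges were 0.20 to 1.74 for H2-Aa and 0.05 to 1.25 for H2-Ab1 (highest without CCR8- replicate 4), -0.11 to 1.60 for H2-Eb1 and -0.019 to 1.01 for Cd74 (lowest without CCR8- replicate 1), -1.14 to 3.18 for H2-DMb1 (lowest without CCR8- replicate 1, below 0 also without CCR8+ replicate 1 or 2), -2.24 to 0.61 for Ciita (above 0 without CCR8+ replicate 1) and -0.37 to 0.72 for Ctss (above 0 without CCR8- replicate 4 or CCR8+ replicate 3).

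Relations with the macrophage level at an unadjusted p under 0.05 numbered 6, and 5 to 7 without single libraries. With the replicate block the count was 0, since its smallest p is 0.125, with r = 0.96 for H2-Aa and a turn to -0.21 for Ciita. Without single libraries r of Ciita was between -0.27 (without CCR8- replicate 1) and 0.79. With the melanoma level in place of the macrophage level, added after seeing the data, 1 member passed (Ciita), and with adjustment over all genes 0. Same-numbered libraries deviated together by r of 0.07 to 0.22 (mean 0.13), not above 0.1 in every pair. Libraries of different numbers had r of -0.17 to 0.10 (mean -0.04). The labels do not state a pairing, so the main tests took the numbers as names, with the replicate block as the alternative. Of the 8 libraries 7 correlated best with their own number.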
